A study of Mus musculus with 33 samples.

Results

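Mini-colon AKP #ii is an organoid line of mouse colorectal cancer cells that was grown out of a tumour-bearing mini-colon, a tube-shaped colon epithelium kept in a microfluidic device. It was compared with organoid AKP, the same genetic model mutated and passaged as conventional organoids. The comparison took the 3 libraries labelled mini-colon AKP #ii and the 3 libraries organoid AKP rep1 to rep3, which carry the same code letter E in their file names, 6 of the 33 libraries in the series. Both lines come from colon organoids of AKP mice, which carry floxed Apc (Apc fl/fl), floxed Trp53 (Trp53 fl/fl) and an inducible oncogene allele, in which a Cre recombinase that needs doxycycline and blue light (OptoCre) removes Apc and Trp53 and switches on the oncogene. In #ii the light was given in the mini-colon, and the study describes the line as enriched in tumours of the lumen. In organoid AKP the light was given to organoids, which were then passaged in parallel. The other lines used here for reference are mini-colon AKP #i, also lumen-enriched, mini-colon AKP #iii, crypt-enriched, and non-induced control organoids of the same alleles, with 3 libraries of letter E each. The model and the component analysis below also held 3 libraries of letter E from in vivo AKP. That line was grown from colon tumours of AKP mice given tamoxifen. The AKP mice of the study also carried Cdx2-creERT2, a Cre that tamoxifen activates. Before RNA was taken, all lines grew for 3 days as organoids and then spent 24 h in a basal medium that held no growth factors. The study describes its RNA-seq samples as independent sets, and each group is 1 line, so the p-values below measure the spread between cultures of a line and not between separately made lines.

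AKP cells carry the lesions that are most often combined in models of colorectal cancer. Loss of Apc leaves β-catenin active, so that WNT target genes such as Lgr5 and Axin2 are transcribed without a ligand, the oncogene signals through the MAPK cascade, and loss of Trp53 removes the main brake on damaged cells. In the colon crypt, WNT and Notch signals keep stem and progenitor cells dividing, and their offspring become absorptive colonocytes or secretory goblet, enteroendocrine and tuft cells. After injury the epithelium can take on a fetal-like, regenerative state in which genes such as Clu, Anxa1 and Ly6a rise and Lgr5 falls.

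Total counts were 3340775, 3734970 and 5885703 in the 3 #ii libraries and 2751409, 3013273 and 3594398 in the 3 organoid AKP libraries. The share of counts from mitochondrial genes was 1.36% in #ii rep1, under the 2.44% and 2.62% of the other #ii libraries and the 2.53% to 2.82% of organoid AKP. The 8 epithelial markers summed to 3217 to 3308 CPM (counts scaled by library size) in #ii and 3086 to 3245 CPM in organoid AKP. Of these, Krt18 was higher in #ii and Vil1 and Epcam lower (the Epcam call was lost without #ii rep2, #ii rep3, organoid AKP rep1 or organoid AKP rep2). Of 12 fibroblast and muscle markers, 7 had no count in #ii and 10 none in organoid AKP, with summed levels of 7.14 to 20.4 CPM in #ii and 4.45 to 21.5 CPM in organoid AKP, most of it Vim. The immune list summed to 12.9 to 17.8 CPM in #ii and 13.3 to 14.4 CPM in organoid AKP, most of it Cd68 (177 counts in #ii and 117 in organoid AKP) and S100a9 (26 and 10 counts), while Cd3e and Adgre1 had no count in either line. The endothelial list summed to 0.529 to 3.18 CPM in #ii and 2.71 to 4.24 CPM in organoid AKP, with counts of Flt1, Vwf and Pecam1 in both lines and none of Cdh5. No member of these 3 lists was called. Of the engineered loci, Trp53 stood at 2.02, 2.38 and 2.29 CPM in #ii and 1.37, 1.31 and 3.79 CPM in organoid AKP, against a mean of 16.9 CPM in control organoids. Apc was lower in #ii by a small step (log2 fold change −0.30 ± 0.11, SE, edgeR adjusted p = 0.0313), a call that was lost without #ii rep2, #ii rep3, organoid AKP rep2 or organoid AKP rep3. Reads at the 3′ end do not tell the recombined Apc allele from the intact one.

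Of the 13027 genes tested, 1517 (11.6%) were higher and 1577 (12.1%) lower in #ii than in organoid AKP by edgeR's quasi-likelihood test at an adjusted p under 0.05, in a model over the 18 libraries of letter E. A change of at least 1 log2 unit was reached by 281 genes (2.16%) upwards and 475 (3.65%) downwards. The libraries of the 2 lines did not overlap for 34.6% of all tested genes. In a principal component analysis of the 18 libraries, the first 2 components (63.0% and 14.2% of the variance) set apart the control and in vivo AKP lines, and the third (4.80%) set apart #ii, at 34.2 to 39.6, from organoid AKP at −18.1 to −9.57, #i at −6.78 to −3.86 and #iii at −23.3 to −21.8.

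**Figure D1:**
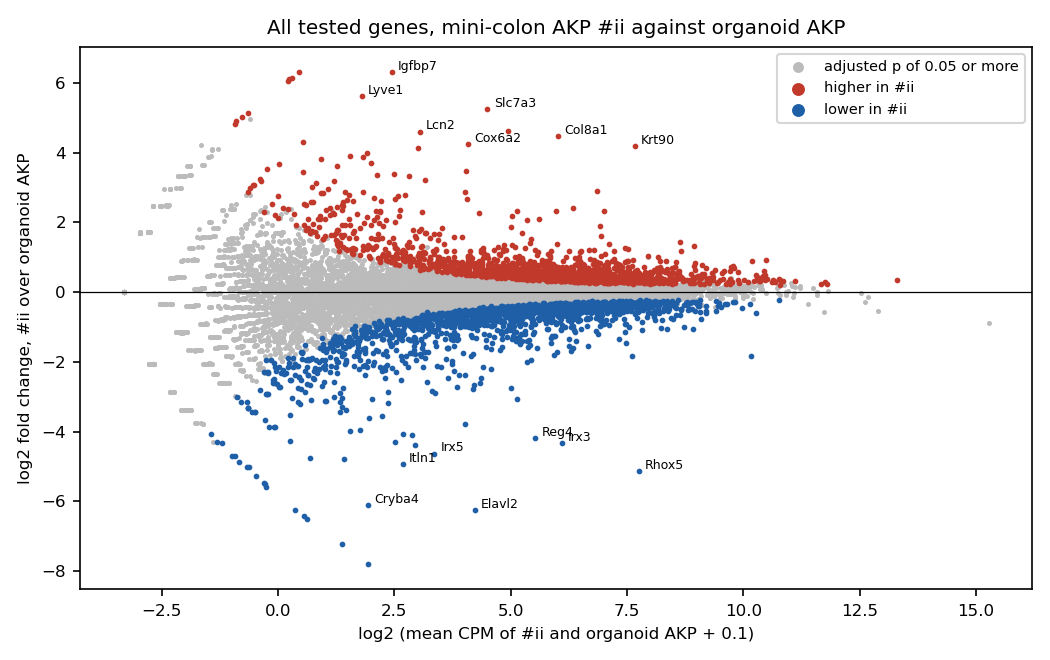
Log2 fold change of #ii over organoid AKP (vertical axis, log2 units) against the mean level of both lines (horizontal axis, log2 CPM) for 13027 genes, with genes past the edgeR threshold in red (1517 higher in #ii) and blue (1577 lower in #ii). Igfbp7, Lyve1 and Slc7a3 stand at the upper edge, and Cryba4, Elavl2 and Rhox5 at the lower edge among the named genes.

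The 12 largest rises among genes of at least 5 CPM were a mixed group of secreted, transport and innate immune genes. Krt90, which lies in the type II keratin cluster, was the most abundant of them. It stood at 348, 370 and 438 CPM in #ii against 22.6, 18.6 and 22.5 CPM in organoid AKP, a log2 fold change of 4.18 ± 0.14 (edgeR adjusted p = 1.68e-25). Col8a1, a chain of the network-forming collagen VIII, had 134, 117 and 118 CPM in #ii and 5.81, 7.18 and 3.79 CPM in organoid AKP. The 3 libraries of each line stood far apart for both genes. Slc7a3, a transporter of cationic amino acids, had 42.8, 45.7 and 43.3 CPM in #ii and 0.684, 0.326 and 2.17 CPM in organoid AKP (5.24 ± 0.35). Tnfrsf26, a receptor of the tumour necrosis factor receptor family, had 61.9, 54.4 and 60.8 CPM in #ii and 4.45, 0.653 and 2.17 CPM in organoid AKP. Cox6a2, the heart and muscle form of a cytochrome c oxidase subunit, had 26.3, 34.1 and 35.5 CPM in #ii and 2.39, 0.653 and 1.89 CPM in organoid AKP. In each of these the lowest #ii library was several times above the highest organoid AKP library.

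Secreted defence proteins were among the same 12. Lcn2, the iron-siderophore-binding lipocalin 2, reached 10.4, 19.8 and 16.8 CPM in #ii and 1.37, 0 and 0.541 CPM in organoid AKP (4.60 ± 0.43, edgeR adjusted p = 4.89e-11). Sftpd, the collectin surfactant protein D, reached 13.3, 16.4 and 15.4 CPM in #ii and 1.71, 0 and 0.812 CPM in organoid AKP. Ifi47, an interferon-induced GTPase, stood at 6.08, 6.08 and 8.66 CPM in #ii and at most 0.653 CPM in organoid AKP. Akr1b7, an aldo-keto reductase, stood at 5.81 to 7.03 CPM in #ii and 0 to 0.812 CPM in organoid AKP. Igfbp7, a secreted protein of the insulin-like growth factor binding family, had 148 counts over the 3 #ii libraries and 1 over the 3 organoid AKP libraries, a 107-fold higher level with a 95% exact counting interval of 19 to 4270. Lyve1, a hyaluronan receptor best known from lymphatic endothelium, had 89 counts and 1 count, 64.5-fold higher in #ii (11.3 to 2580), while the endothelial marker list had none of its members called. Serpinb9b, an inhibitor of serine proteases, had 66 counts in #ii and 3 in organoid AKP, 15.9-fold higher (5.22 to 79.3).

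**Figure D2:**
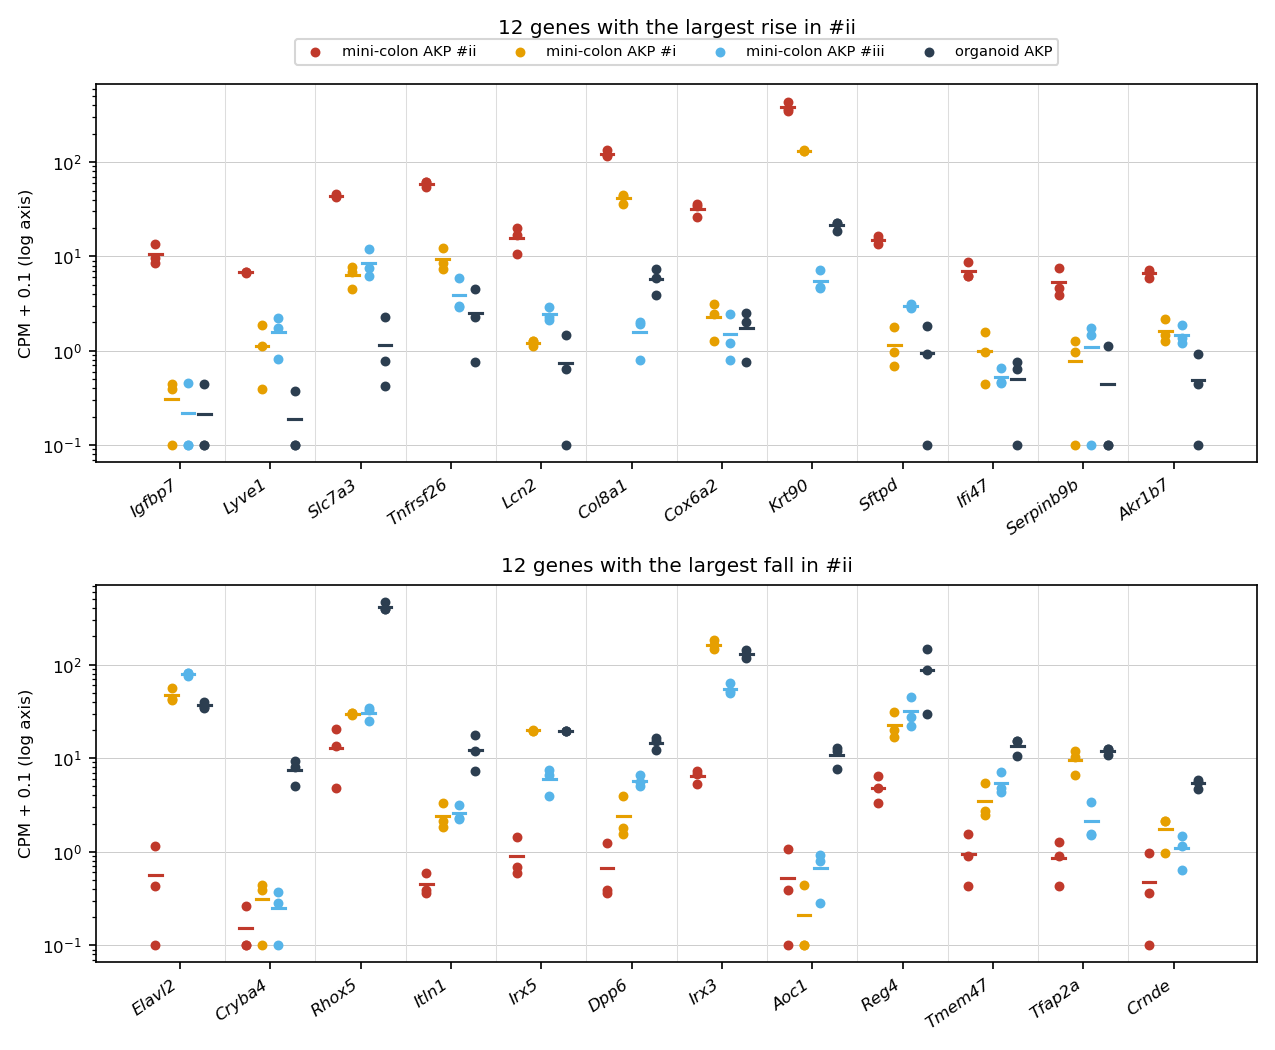
Levels of the 12 genes with the largest rise (top) and the largest fall (bottom) in #ii, in CPM + 0.1 on a log axis, with 1 point per library, 3 libraries per line, and a bar at the mean. For every gene shown the #ii points lie clear of the organoid AKP points, and for Elavl2, Irx3 and Irx5 they also lie clear of #i and #iii.

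The 12 largest falls included 4 genes of transcription factors, namely Rhox5, Irx3, Irx5 and Tfap2a. Rhox5, a homeobox gene of the X-linked reproductive cluster, had 13.3, 20.4 and 4.74 CPM in #ii against 389, 395 and 468 CPM in organoid AKP (−5.14 ± 0.32, edgeR adjusted p = 6.95e-08). Elavl2, an RNA-binding protein best known from neurons, had 0, 1.06 and 0.327 CPM in #ii and 35.2, 34.6 and 40.0 CPM in organoid AKP (−6.25 ± 0.33). Irx3 of the Iroquois homeobox family had 5.21, 7.14 and 6.70 CPM in #ii and 130, 117 and 143 CPM in organoid AKP (−4.34 ± 0.16, edgeR adjusted p = 3.69e-24). Its relative Irx5 had 0.579, 1.32 and 0.490 CPM in #ii and 19.5, 19.3 and 19.5 CPM in organoid AKP (−4.63 ± 0.32). The groups were separated by more than 10 times at each of these genes. Tfap2a, a transcription factor of the AP-2 family, had 0.327 to 1.16 CPM in #ii and 10.8 to 12.4 CPM in organoid AKP. Cryba4, a crystallin, had 1 count in #ii and 72 in organoid AKP, 99.3-fold lower in #ii (17.3 to 3980). Dpp6, a partner of potassium channels, Tmem47, a junctional membrane protein, and Aoc1, the histamine-degrading diamine oxidase, each fell to a level between 0 and 1.45 CPM in #ii, against 7.52 to 16.4 CPM in organoid AKP.

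Irx3 and Irx5 are neighbours on chromosome 8. On GRCm39, Irx3 lies at 92525153 to 92528695 and Irx5 at 93084253 to 93102914, with the long noncoding RNA gene Crnde between them at 93038763 to 93084336. Crnde fell with them, to 0.868, 0.264 and 0 CPM in #ii against 5.81, 4.57 and 5.41 CPM in organoid AKP. Its end overlaps the start of Irx5 and the strand setting of the counting is not given in the sources used here, so reads of this pair may not be separate. Before Irx3 lie Rpgrip1l and Fto, which overlap each other. Fto was not called (0.30 ± 0.16, edgeR adjusted p = 0.176), at 28.4 to 32.2 CPM in #ii and 22.2 to 26.4 CPM in organoid AKP. Rpgrip1l was lower in #ii (−1.09 ± 0.27). Of the 49 tested members of the homeobox and regional identity list, 7 (14.3%, near the 12.1% of all genes) were lower and 2 higher in #ii, with a median log2 fold change of −0.14 against 0.00 over all genes, and 4 instead of 7 were lower without organoid AKP rep2. Besides the genes above, Meis2, Hoxb8, Hoxb6 and Foxa3 were lower, and Hoxa10 and Onecut2 higher. The colon identity factor Cdx2 was not called (78.5 CPM in #ii and 98.1 CPM in organoid AKP on average).

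Other neighbouring genes were picked after their values were seen, and are described without a test of the group. Casp1, Casp4 and Casp12, the inflammatory caspases within 75 kb of chromosome 9, all rose. Casp4 had 10.1, 12.2 and 8.17 CPM in #ii and 1.71, 2.29 and 0.541 CPM in organoid AKP (2.75 ± 0.35), and Casp1, which matures interleukin-1β and interleukin-18, had 11.3, 13.2 and 9.97 CPM in #ii and 3.76, 2.29 and 3.79 CPM in organoid AKP (1.77 ± 0.25). Il18r1 and Il18rap, the chains of the interleukin-18 receptor on chromosome 1, rose by 3.32 ± 0.40 and 2.16 ± 0.45. In the clade B serpin cluster of chromosome 13, Serpinb6b, Serpinb9 and Serpinb9b rose while Serpinb1a fell (−0.88 ± 0.16). Serpinb9 stood at 10.7, 9.51 and 10.1 CPM in #ii and 2.39, 1.31 and 2.17 CPM in organoid AKP. In the keratin cluster of chromosome 15, the rise of Krt90 went with smaller rises of Krt4 (0.63 ± 0.09), Krt7 (0.60 ± 0.09) and Krt18 (0.57 ± 0.10) and with falls of Krt6a (−1.49 ± 0.18) and Krt79 (−1.34 ± 0.22), and Krt8 was not called (0.07 ± 0.11). Tnfrsf26 rose while its neighbours Tnfrsf22 (−0.26 ± 0.22) and Tnfrsf23 (−0.11 ± 0.16) were not called. Serpin, Tnfrsf and Ly6 genes have near-identical copies beside them, between which the counting could have split reads, so the values of single members are uncertain.

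The cell cycle genes divided by phase. Of 21 mitotic genes, 16 were lower in #ii and 0 higher, where 12.1% of all genes were lower, and the median log2 fold change was −0.43. Mki67, the proliferation marker behind Ki-67 staining, had 192, 235 and 208 CPM in #ii and 422, 477 and 435 CPM in organoid AKP (−1.07 ± 0.10, edgeR adjusted p = 1.99e-11). Cenpf and Cenpe, which work at the kinetochore, had 273, 348 and 323 CPM and 272, 308 and 265 CPM in #ii, against 575, 748 and 650 CPM and 550, 587 and 540 CPM in organoid AKP. Nusap1, a spindle protein, fell by 0.79 ± 0.09 log2 units, and Top2a, which untangles chromosomes, by 0.61 ± 0.08. No library of #ii reached the level of any organoid AKP library for these genes. The change was not equal across the list, since Ccnb1, the mitotic cyclin, fell by 0.41 ± 0.10 and Cdk1 was not called (−0.25 ± 0.10). The summed level of all 21 was 4797 to 5386 CPM in #ii and 7158 to 7937 CPM in organoid AKP, with #i (5972 to 6314 CPM) and #iii (6405 to 6665 CPM) between. Of 20 replication and G1-S genes, by contrast, only Ccne2 was lower (−0.68 ± 0.14) and Cdc45 and Mcm5 were higher, and the median was 0.06. Cdc45, which unwinds DNA with the Mcm proteins, had 75.2, 66.6 and 70.1 CPM in #ii and 51.6, 47.3 and 48.4 CPM in organoid AKP. The Mcm5 call was lost without #ii rep3 or organoid AKP rep2 and in the fit to all 33 libraries.

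Genes of mitosis are known to share promoter elements, a CCAAT box and the cell cycle gene homology region (CHR, TTTGAA), through which they are repressed outside division. The sequences are from the RefSeq promoter table (GRCm38.p6), of which only the 250 bases before each start were read. For 18 of the 21 mitotic genes an entry was found. CCAAT or ATTGG was present in 16 of them (88.9%) and TTTGAA or TTCAAA in 7 (38.9%). Among all 27025 promoters of the same length the shares were 34.5% and 16.3%, and among those of tested genes 36.7% and 10.7%. Of the 14 found promoters whose genes were lower in #ii, 12 held the first and 5 the second. Neither share was thus higher among the genes that fell than over the list. CCAAT or ATTGG was also present in 15 of the 16 promoters found for the cholesterol synthesis list described below. No test was made, and a match is not a site. To show the elements at members of this group, the called genes with the smallest adjusted p that hold both are printed below, 5′ to 3′ on the strand of the gene, with the matching letters in capitals. Mki67 (chr7:135716380-135716629, minus strand) has TTTGAA beginning 116 and 98 bases before the start. Top2a (chr11:99024190-99024439, minus strand) has TTTGAA beginning at 179 bases and its reverse complement TTCAAA at 23 bases.
Mki67: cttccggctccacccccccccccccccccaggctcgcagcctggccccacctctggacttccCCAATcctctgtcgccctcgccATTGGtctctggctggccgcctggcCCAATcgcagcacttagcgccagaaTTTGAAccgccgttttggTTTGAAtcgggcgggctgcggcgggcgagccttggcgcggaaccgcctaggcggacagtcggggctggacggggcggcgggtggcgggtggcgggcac
Top2a: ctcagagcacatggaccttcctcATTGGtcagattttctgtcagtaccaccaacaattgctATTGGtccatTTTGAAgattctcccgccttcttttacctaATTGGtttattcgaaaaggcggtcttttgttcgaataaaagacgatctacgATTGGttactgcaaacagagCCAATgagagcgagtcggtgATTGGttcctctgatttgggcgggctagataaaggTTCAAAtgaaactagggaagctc

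Many cholesterol synthesis genes were lower in #ii. Of 24 genes of the pathway and its sterol sensors, 13 (54.2%) were lower, 0 higher and 11 not called, with a median of −0.38, where 12.1% of all genes were lower, and 9 were lower without organoid AKP rep2. Hmgcs1, an early enzyme of the pathway, had 302, 307 and 267 CPM in #ii and 434, 516 and 442 CPM in organoid AKP (−0.67 ± 0.09, edgeR adjusted p = 4.07e-07). The groups did not overlap at this gene. Insig1, which retains the SREBP transcription factors, fell by 1.09 ± 0.15 and Srebf2, which encodes SREBP-2, by 0.29 ± 0.11. Fdft1, at the branch to sterols, was not called (0.05 ± 0.13). Summed over the list, #ii had 2187 to 2236 CPM and organoid AKP 2785 to 3280 CPM. SREBP-2 binds sterol regulatory elements. Of the promoters found for this list, only that of Hmgcs1 holds TCACNCCAC or its reverse complement GTGGNGTGA (1.04% of all promoters hold it). The Hmgcs1 promoter is printed with the match in capitals, beginning 137 bases before the start (chr13:119690101-119690350, plus strand, GRCm38.p6, RefSeq). Promoter entries were found for only 16 of the 24 genes, so the matches among them are not read as a share of the whole list.
Hmgcs1: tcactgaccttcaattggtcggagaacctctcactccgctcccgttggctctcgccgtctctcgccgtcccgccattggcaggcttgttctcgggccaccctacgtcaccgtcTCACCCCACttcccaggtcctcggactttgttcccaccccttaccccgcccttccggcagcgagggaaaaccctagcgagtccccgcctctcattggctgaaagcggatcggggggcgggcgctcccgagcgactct

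**Figure D3:**
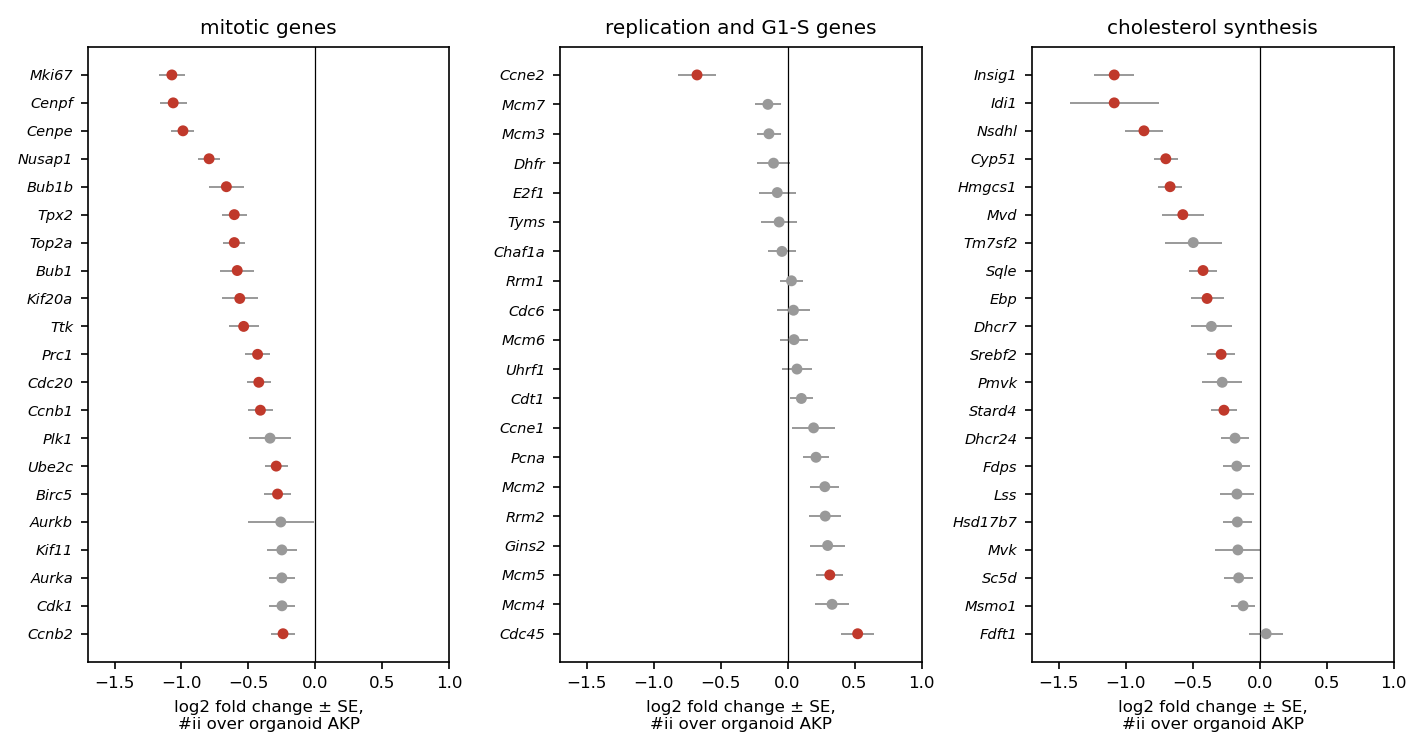
Log2 fold change of #ii over organoid AKP with its SE (horizontal axis, log2 units) for tested mitotic, replication and G1-S, and cholesterol synthesis genes, red where the edgeR adjusted p is under 0.05. All 21 mitotic genes lie left of 0, the 20 replication genes lie on both sides, and of the 21 cholesterol genes drawn, out of 24, only Fdft1 lies right of 0.

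WNT target genes and stem cell markers were more often lower than higher in #ii, and 10 of each list were not called. Of 21 tested targets, 8 (38.1%) were lower and 3 (14.3%) higher in #ii, with a median of −0.18. Of 19 stem cell markers, 7 (36.8%) were lower and 2 (10.5%) higher, with a median of −0.33. Over all genes 12.1% were lower and 11.6% higher, so only the lower shares stood above those of all genes by a wide margin. Lgr5, the stem cell receptor for R-spondins, had 30.7, 27 and 34.8 CPM in #ii and 79.0, 103 and 74.2 CPM in organoid AKP (−1.45 ± 0.15, edgeR adjusted p = 3.82e-09). Ascl2, the transcription factor of colon stem cells, had 18.5, 24.8 and 25.2 CPM in #ii and 38.3, 61.4 and 59.3 CPM in organoid AKP (−1.20 ± 0.17). Axin2, a feedback inhibitor of the pathway, had 72.9, 67.4 and 50.2 CPM in #ii and 90.6, 145 and 100 CPM in organoid AKP. For all of these the lines were separate, with organoid AKP rep2 the highest library. Smoc2, a matricellular protein of stem cells (−1.41 ± 0.21), Sp5, a WNT-induced repressor (−1.04 ± 0.19), and Sox9 of the crypt base (−0.35 ± 0.09) were lower too, but these calls were lost when all 6 organoid AKP libraries served as reference. Cd44, an adhesion receptor used as a marker of colorectal cancer stem cells, had 344, 363 and 290 CPM in #ii and 441, 540 and 444 CPM in organoid AKP (−0.52 ± 0.11). On the other side Tnfrsf19 (Troy) was higher (0.42 ± 0.10), as was Prox1 (1.24 ± 0.43), at 3.47, 3.17 and 9.80 CPM in #ii and 1.03, 3.59 and 2.98 CPM in organoid AKP, where the libraries overlapped. The third was the cyclin gene Ccnd1 (0.30 ± 0.09), whose call was lost without #ii rep2 and with all 6 organoid AKP libraries as reference, where 1 WNT target in place of 3 was higher. Among ligands and receptors, Wnt7a rose to 19.7, 15.3 and 18.5 CPM in #ii, against 5.81, 5.22 and 4.06 CPM in organoid AKP, and the receptors Fzd3 (−2.17 ± 0.35) and Fzd10 (−1.17 ± 0.26) fell.

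Eph, ephrin and Notch genes were lower in #ii where they were called, and TGFβ and BMP genes changed in both directions. Of 15 Eph receptors and ephrins, which sort cells along the crypt, 6 (40%) were lower and 0 higher, where 12.1% of all genes were lower. Ephb2, the receptor graded from the crypt base, had 37.9, 46.8 and 55.1 CPM in #ii and 81.7, 107 and 84.4 CPM in organoid AKP (−0.95 ± 0.13). The ephrin genes Efna3 and Efna4 fell by 1.77 ± 0.34 and 0.72 ± 0.18. Of 14 Notch pathway genes, 5 (35.7%) were lower and 0 higher. Among them were Hes6 (−0.75 ± 0.11, not called with all 6 organoid AKP libraries), Notch1 (−0.94 ± 0.29) and the ligand Jag1 (−0.46 ± 0.13). Notch2 (−0.13 ± 0.16) and the target Hes1 (0.22 ± 0.12) were not called. Without organoid AKP rep2 the lower calls were 4 of the Eph and ephrin genes and 2 of the Notch genes. Without #ii rep1 they were 3 Eph and ephrin genes, and without #ii rep3 they were 2 Notch genes. Over all genes, 1103 of 13001 were lower without organoid AKP rep2 and 1233 of 12999 without #ii rep3. In the TGFβ and BMP list of 30 genes, 7 (23.3%) were lower and 3 (10%) higher, the latter under the 11.6% of all genes. Id3, a direct BMP target, had 2.89, 5.29 and 5.39 CPM in #ii and 13, 48 and 13.5 CPM in organoid AKP, with Id1 and Id2 also lower, Bmp2 fell by 1.74 ± 0.29, and Bmp4 rose by 1.24 ± 0.27. Pmepa1, a TGFβ-induced feedback inhibitor, rose to 710, 676 and 716 CPM in #ii against 299, 269 and 278 CPM in organoid AKP (1.31 ± 0.09, edgeR adjusted p = 8.93e-15). The Bmp4 call was lost with all 6 organoid AKP libraries.

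Several goblet cell genes were lower in #ii, and both called tuft cell genes were higher. Of 13 tested goblet cell genes, 6 (46.2%) were lower and 0 higher, with a median of −1.20. Over all genes 12.1% were lower and 11.6% higher. Reg4, a secreted lectin, had 3.18, 6.34 and 4.74 CPM in #ii and 29.4, 146 and 87.1 CPM in organoid AKP (−4.18 ± 0.58, edgeR adjusted p = 0.000169). Agr2, which folds mucins, had 6.08, 9.25 and 8.17 CPM in #ii and 25, 19.9 and 17.3 CPM in organoid AKP. Itln1, intelectin, which is not a member of this list, had 0.264 to 0.490 CPM in #ii and 7.18 to 17.6 CPM in organoid AKP. The spread of organoid AKP was wide but did not reach #ii. Muc2, the main goblet mucin, was at 0, 2.91 and 0.163 CPM in #ii and 1.03, 2.94 and 3.79 CPM in organoid AKP and was not called. The list depends on the reference. Against the 3 organoid AKP libraries of letter F, a reference chosen after seeing the data, 4 goblet genes were higher and 2 lower in #ii, and Reg4 and Agr2 changed sign. Against that reference 3187 of all 13606 genes were higher and 3297 lower. What the letter stands for is not given in the sources used here. Of 5 tested enteroendocrine genes, 2 (40%) were lower and 0 higher, all at few counts. Chgb had 1 count in #ii and 11 in organoid AKP, 15.2-fold lower (2.21 to 653), a call lost without #ii rep3 or organoid AKP rep2. Pax6 had 0 and 8 counts, at least 3.68-fold lower against a floor of 3 counts over the line. Isl1 had 6 counts in #ii and 3 in organoid AKP, and Insm1 3 and 1. Of 5 tested tuft cell genes, Avil (166, 217 and 261 CPM in #ii, 56.1, 32.0 and 40.3 CPM in organoid AKP) and Ptgs1 (513, 480 and 464 CPM in #ii, 273, 223 and 302 CPM in organoid AKP) were higher, while the defining tuft cell factor Pou2f3 had no count in either line. Other tuft cell genes had few counts and went both ways. Dclk1 had 7 in #ii and 12 in organoid AKP, Alox5ap 2 and 10, Trpm5 0 and 1, and Sh2d6 13 and 1.

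Few colonocyte genes were called, and 1 library stood apart for differentiation markers. Of 28 tested genes, 4 (14.3%) were lower in #ii and 0 higher, a share near the 12.1% of all genes, and the median was 0.08. Car2, a carbonic anhydrase, had 106, 98.3 and 81.4 CPM in #ii and 247, 287 and 245 CPM in organoid AKP (−1.46 ± 0.10, edgeR adjusted p = 1.96e-14), and Vil1, the microvillus protein villin, had 43.4, 44.9 and 43.1 CPM in #ii and 95.4, 95.0 and 84.7 CPM in organoid AKP. The differentiation marker Krt20 was at 0.289, 7.14 and 1.47 CPM in #ii, 0.684, 1.63 and 0.541 CPM in organoid AKP and 744 CPM on average in control organoids. Fabp1 was at 0, 9.51 and 0.163 CPM in #ii and 1.37, 4.57 and 0 CPM in organoid AKP. Krt20, Fabp1, Clca4a and the goblet genes Muc2 and Tff3 were all highest in #ii rep2 among the 3 libraries of the line, and none of them was called. Without #ii rep2, Fabp1 turned to −3.81 and was called lower (edgeR adjusted p = 0.0474), as was Muc2 (−4.30). Krt20 was called higher without #ii rep1 (1.96).

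Fetal-like and regenerative genes were more often higher, 9 of 22 against 2 lower, where 11.6% of all genes were higher, and the median was 0.21. Clu, clusterin, a marker of revival stem cells, had 85.3, 80.3 and 110 CPM in #ii and 34.5, 34.0 and 38.4 CPM in organoid AKP (1.37 ± 0.15, edgeR adjusted p = 1.30e-08). Basp1, a membrane-bound signalling protein, had 279, 238 and 257 CPM in #ii and 124, 96.9 and 106 CPM in organoid AKP. Anxa3 and Krt7, both abundant, rose by 0.88 ± 0.09 and 0.60 ± 0.09, and Spp1, osteopontin, by 1.28 ± 0.31. Against these, Ly6d fell to 98.9, 117 and 111 CPM in #ii, with 232, 230 and 262 CPM in organoid AKP (−1.14 ± 0.09), Sprr1a fell too, and Anxa1 (0.51) was not called. Of 18 targets of Hippo-YAP signalling, 5 were higher and 1 lower. Ankrd1, a sensitive YAP target, had 663, 560 and 515 CPM in #ii and 256, 173 and 216 CPM in organoid AKP (1.43 ± 0.14), and Ccn2 (CTGF), with 397, 347 and 250 CPM in #ii and 160, 173 and 157 CPM in organoid AKP, missed the threshold (edgeR adjusted p = 0.0829). Ankrd1 and Myof, 2 of the 5, lie on chromosome 19, which is described below. Of 22 integrins, laminins and collagens, 6 were higher and 2 lower, with Itgb5 (1.30 ± 0.17) and Lamb1 (1.17 ± 0.22) higher and Col18a1 lower (−0.73 ± 0.11). Timp3, an inhibitor of metalloproteinases, rose to 620, 544 and 526 CPM in #ii against 303, 201 and 245 CPM in organoid AKP. Lamb1 was no longer called with all 6 organoid AKP libraries.

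Outputs of the mutated pathways changed in both directions. Of 24 MAPK output genes, 5 (20.8%) were higher and 2 (8.33%) lower, where 11.6% of all genes were higher and 12.1% lower. Of the 5 higher, 2 lie on chromosomes 16 or 19, described below. Dusp6, the phosphatase that limits ERK, had 460, 423 and 390 CPM in #ii and 307, 256 and 303 CPM in organoid AKP (0.56 ± 0.09). Etv5 was higher (0.70 ± 0.14) and Spry4 lower. Of 21 p53 targets, Ccng1 and Rps27l were higher (9.52%) and Cdkn1a lower (4.76%), both under the shares of all genes. Cdkn1a, which encodes the cell cycle inhibitor p21, had 27.5, 26.7 and 29.4 CPM in #ii and 51.0, 88.8 and 47.9 CPM in organoid AKP (−1.15 ± 0.17), where control organoids averaged 2368 CPM. The Rps27l call was lost in several alternatives. Of the other kinase inhibitors, Cdkn1c fell by 1.71 ± 0.29 and Cdkn2b and Cdkn2a rose by 0.94 ± 0.18 and 0.35 ± 0.10. Among ligands of receptor tyrosine kinases, Fgf9 (2.33 ± 0.41) and Hbegf (0.73 ± 0.12) were higher, and Vegfa (−0.72 ± 0.10) and Kitl (−0.60 ± 0.10) lower. The Hbegf call was lost with all 6 organoid AKP libraries. The receptor gene Igf1r (−0.14 ± 0.13) and the transcription factor gene Prdm16 (0.40 ± 0.25) were not called, though Prdm16 was called higher with all 6 organoid AKP libraries (0.71).

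Antioxidant genes were more often higher than lower. Of 23 tested, 10 (43.5%) were higher and 1 (4.35%) lower in #ii, with a median of 0.37. Over all genes 11.6% were higher and 12.1% lower. Gsto1, a glutathione transferase, had 187, 216 and 211 CPM in #ii and 91.7, 97.3 and 84.7 CPM in organoid AKP (1.17 ± 0.10, edgeR adjusted p = 1.81e-12). Gsta4, which clears lipid aldehydes, rose by 0.67 ± 0.11, Srxn1, sulfiredoxin, by 0.63 ± 0.11 and Nqo1, a quinone reductase, by 0.81 ± 0.20. Sod1, superoxide dismutase, was abundant in both lines and had 1330, 1389 and 1644 CPM in #ii and 988, 1007 and 1100 CPM in organoid AKP. Gsto1 lies on chromosome 19 and Sod1 on chromosome 16. With the genes of both chromosomes left out 9 of 20 were higher, where 1417 of all 12214 genes were higher. Gstm1 was lower (−0.59 ± 0.16), and the heme oxygenase gene Hmox1 was not called (−0.01). Of 10 metallothioneins and zinc transporters, 5 (50%) were lower and 1 (10%) higher, the latter under the share of all genes. The metallothionein genes Mt2 and Mt1 fell by 0.95 ± 0.17 and 0.53 ± 0.11, while the zinc importer gene Slc39a4 rose to 155, 226 and 228 CPM in #ii, against 18.8, 31.7 and 30.9 CPM in organoid AKP (2.90 ± 0.19, edgeR adjusted p = 9.96e-10). The Mt1 and Mt2 calls were lost with all 6 organoid AKP libraries.

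Innate immune genes were partly higher. Of 22 tested interferon response genes, 6 (27.3%) were higher and 2 (9.09%) lower, with a median of 0.42. Over all genes 11.6% were higher and 12.1% lower. Ifi27 had 56.1, 62.1 and 57.2 CPM in #ii and 13, 12.4 and 9.74 CPM in organoid AKP (2.33 ± 0.42, edgeR adjusted p = 0.00129), and Isg15, a ubiquitin-like modifier, rose by 0.62 ± 0.18. Parp14 and Rtp4, 2 of the 6, lie on chromosome 16. Rsad2 was lower (−1.20 ± 0.32), and Irf7 (0.20) was not called. Of 18 tested chemokines and cytokines of the epithelium, 5 (27.8%) were higher and 0 lower. Besides Lcn2 these were Slpi, a protease inhibitor with 30.4, 27.8 and 33.7 CPM in #ii and 11.6, 11.4 and 20.03 CPM in organoid AKP, Cxcl5, Cxcl16 and Csf1. Glycolysis genes were lower where called, 5 of 18 (27.8%), against 12.1% of all genes. Pdk1, which holds pyruvate back from mitochondria, had 26.9, 34.4 and 45.1 CPM in #ii and 84.5, 96.3 and 77.9 CPM in organoid AKP (−1.25 ± 0.14). Ldha, the lactate dehydrogenase gene, was not called.

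**Figure D4:**
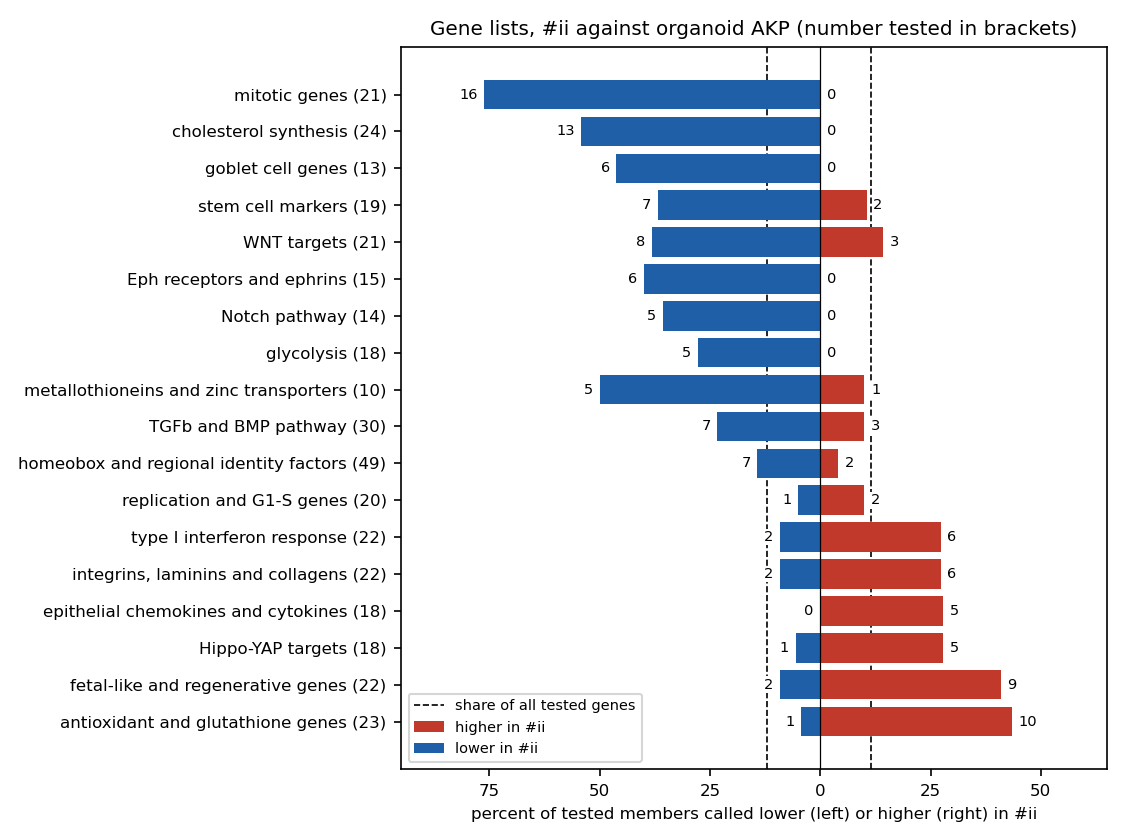
Percent of the tested members of 18 gene lists that were called lower (blue, to the left) or higher (red, to the right) in #ii than in organoid AKP, with the number of calls at each bar and the number tested in brackets. Dashed lines mark the share of all 13027 genes called, 12.1% lower and 11.6% higher, and mitotic genes reach 76.2% lower while antioxidant genes reach 43.5% higher.

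The genes were also compared with the other mini-colon lines of letter E, which share the #ii libraries, so the values are given side by side. Against #i, 6.85% of genes were higher and 6% lower in #ii, with 1.7% and 1.4% changed by 1 log2 unit or more. Against #iii, 12% were higher and 11.7% lower, with 3.3% and 2.48% at that size. Against control organoids 70.6% of genes were called, with 35.8% of all genes higher in #ii. From the genes called with that size of change against organoid AKP, #i and #iii alike, the 8 with the largest changes in each direction were taken. Among them Igfbp7 had 0.211 CPM in #i and 0.117 CPM in #iii, against 8.46 to 13.6 CPM in #ii, and Cox6a2 was higher in #ii by 4.26 ± 0.31 over organoid AKP, 3.88 over #i and 4.33 over #iii. Bcl2l15, of the BCL-2 family, had 23.7, 32.5 and 29.1 CPM in #ii, 3.01 CPM on average in #i, 2.15 CPM in #iii and 5.13, 5.55 and 2.98 CPM in organoid AKP. Downwards, Elavl2 averaged 46.9 CPM in #i and 78.9 CPM in #iii, and Irx3 averaged 164 CPM in #i and 55.3 CPM in #iii, all far above #ii. Khdc1a had 0.868, 0.264 and 1.144 CPM in #ii, 31.8 CPM on average in #i, 53.6 CPM in #iii and 7.18, 6.53 and 7.58 CPM in organoid AKP. Eid2, an inhibitor of differentiation, and Ly6c2 were also lower in #ii than in each of the 3 lines. In the antioxidant list 13 of 23 genes were higher in #ii than in #i and 13 than in #iii, and in the mitotic list 5 of 21 were lower than in #i and 6 than in #iii.

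Other changes differed in size between the reference lines. Lgr5 in #ii did not pass the threshold against #i (−0.21, edgeR adjusted p = 0.474) or #iii (−0.03, adjusted p = 0.929), with averages of 36.1 CPM in #i and 31.1 CPM in #iii. Cryba4 and Aoc1 were also low in #i and #iii, at means of at most 0.57 CPM, and Rhox5 stood at 29.8 CPM in #i and 30.7 CPM in #iii, against 4.74 to 20.4 CPM in #ii and 389 to 468 CPM in organoid AKP. Krt90 averaged 385 CPM in #ii, 132 CPM in #i, 5.41 CPM in #iii and 21.2 CPM in organoid AKP, and Col8a1 123 CPM in #ii, 41.4 CPM in #i and 1.48 CPM in #iii. Cdkn2a and Cdkn2b, which encode inhibitors of the cell cycle kinases, were higher in #ii than in #iii by 4.12 and 4.47 log2 units. Of 21 p53 targets, 15 were lower in #ii than in #iii, where 11.7% of all genes were lower. Trp53 averaged 9.81 CPM in #iii, 2.23 CPM in #ii and 29.2 CPM in in vivo AKP. The p53 targets summed to 1571 to 1641 CPM in #iii, 878 to 1054 CPM in #ii and 714 to 756 CPM in in vivo AKP. A link between the level of Trp53 and these targets was not tested.

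Genes of 2 chromosomes were shifted as a whole. For the genes with a mean of at least 5 CPM, the median log2 fold change of #ii over organoid AKP was 0.38 for the 327 genes of chromosome 16 and 0.43 for the 367 genes of chromosome 19, a median fold of 1.30 and 1.35, while the 17 other autosomes had medians from −0.05 to 0.05. Per library, as the median of log2 (CPM + 1) minus the organoid AKP mean, chromosome 16 stood at 0.378, 0.372 and 0.376 in #ii and between −0.009 and 0.008 in organoid AKP. Chromosome 19 stood at 0.412, 0.424 and 0.392 in #ii and between −0.035 and 0.017 in organoid AKP. All 3 libraries of #ii were thus alike and apart from organoid AKP. The exact two-sided permutation p was 0.1 for both chromosomes, the lowest that 3 against 3 libraries can reach. Both chromosomes were picked after their medians were seen, so this p adds no support. The libraries of #i and #iii lay between −0.053 and 0.036 on these chromosomes. The X chromosome was lower in #ii, at −0.157, −0.147 and −0.130. The shift ran along the whole of both chromosomes, since 4 equal bins of chromosome 16 by gene order had medians of 0.35 to 0.41 and those of chromosome 19 of 0.40 to 0.44. Of the genes on chromosomes 16 and 19, 50.7% were called higher and 3.6% lower, against 11.3% and 14% on the other autosomes, so that these 694 genes gave 352 of the 1374 higher calls at this level. Among the genes named above, Col8a1, Cdc45, Etv5, Itgb5, Sod1, Parp14 and Rtp4 lie on chromosome 16 and Gsto1, Myof and Ankrd1 on chromosome 19. The log2 fold changes of Col8a1, Itgb5, Rtp4, Gsto1 and Ankrd1 were over 1, beyond the median of their chromosome. What lies behind the shift was not tested, and no DNA data were analysed here.

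**Figure D5:**
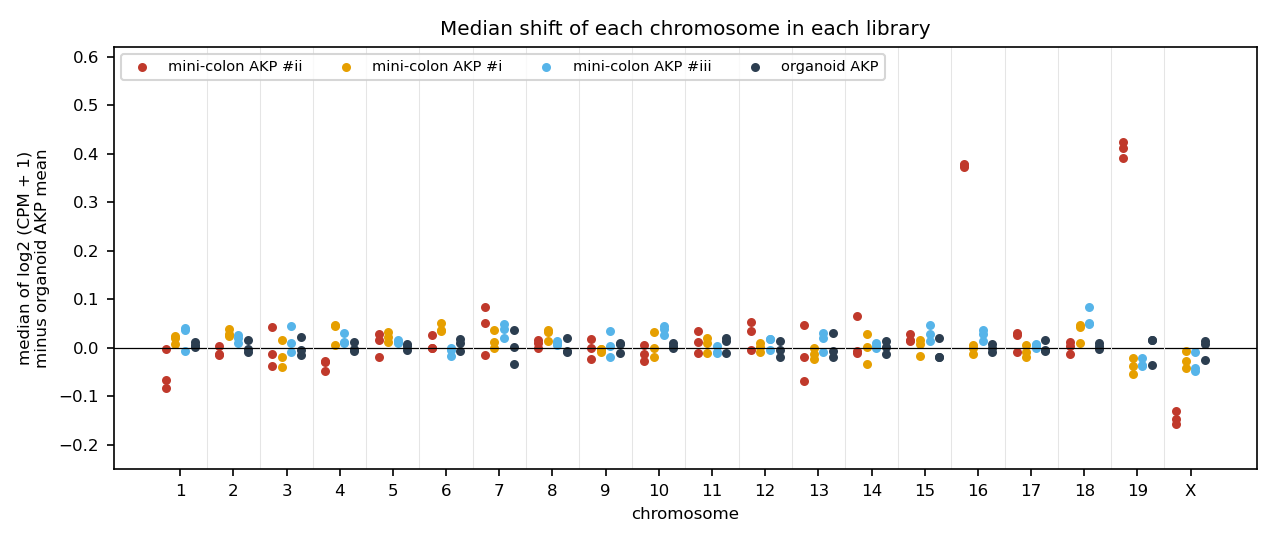
Median over the genes of each chromosome of log2 (CPM + 1) minus the mean of the 3 organoid AKP libraries (vertical axis, log2 units), with 1 point per library for #ii, #i, #iii and organoid AKP. The 3 #ii points stand at 0.372 to 0.378 on chromosome 16 and 0.392 to 0.424 on chromosome 19, and the other lines stay near 0.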

How the data were processed

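The authors deposited raw read counts per gene, 1 table per library, made from 3′ mRNA-seq (QuantSeq) reads that the study aligned to GRCm39 with STAR. The annotation, the counting tool and its strand setting are not given in the sources used here. Such counts cover the 3′ end of transcripts, so they do not need a length correction and do not read internal deletions. Of 32285 identifiers, 31674 were given a symbol from GENCODE M39, and the unannotated rest held 5.68% of counts in the 18 libraries of letter E. All counts of these libraries were fitted together with 1 coefficient per line (edgeR 4.0.16 in R 4.3.3, TMM scaling, robust quasi-likelihood test, at least 1 CPM in at least 3 libraries, 13027 genes, Benjamini-Hochberg adjusted p under 0.05), since the lines then share 1 estimate of the spread over 12 residual degrees of freedom. The study's own tool, limma-voom, was an alternative. CPM values are TMM-scaled.

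The members, the 49 gene lists (895 of 905 genes matched, 717 tested) and the rules were chosen with earlier results of these data known. Named genes were the 12 largest changes per direction of at least 5 CPM without overlap between libraries, up to 4 called members of each list with the smallest p, the engineered loci and genes the study names, and the 8 largest changes per direction called against all 3 other AKP organoid lines. Other list members were added as examples after their values were seen, which also holds for the neighbouring gene groups and the chromosome medians. Of named genes with 1 to 3 counts in a line, the ratio is given with a 95% exact interval, which covers counting error only. Alternatives were DESeq2 (1.42.0) and its size factors, limma-voom (limma 3.58.1), no filter, only the 6 libraries compared, all 33 libraries, all 6 organoid AKP libraries, a replicate block, unannotated identifiers left out and each library left out in turn, and, chosen after seeing the data, organoid AKP of letter F and leaving out chromosomes 16 and 19. The fit was tested on simulated data. Some genes are not reported here by name, though the counts over the lists include them.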

Additional observations from a re-analysis of the deposited data

Results flagged for a closer look

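The median shift of chromosome 19 against organoid AKP had opposite signs in the mini-colon lines. It was 0.412 in #ii rep1, with all 3 #ii libraries above 0, while all 3 libraries of #i (−0.053 to −0.022) lay below 0. The same 0.412 stood against #iii, whose 3 libraries (−0.037 to −0.021) were also below 0. The values of #i and #iii were close to those of the organoid AKP libraries themselves (−0.035 to 0.017), so that only the shift of #ii was large. Neither difference was tested. Groups of 3 libraries were not searched for outlying samples.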

How the results depend on the processing

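Against organoid AKP, 1517 genes were higher and 1577 lower in #ii. Leaving out 1 library at a time gave 1043 to 1403 higher and 1103 to 1551 lower genes, against #i 606 to 838 higher and 552 to 738 lower, and against #iii 1181 to 1411 higher and 1184 to 1425 lower. With organoid AKP of letter F as reference, 3187 genes were higher and 3297 lower, and the cause was not tested. Against that reference Reg4 (0.42), Agr2 (1.31), Ccne2 (0.31), Junb (−0.21), Lamb1 (−0.39), Cldn4 (−0.21) and Lgals4 (1.61) changed sign, as did Lgals4 (0.21) with all 6 organoid AKP libraries and Fabp1 (−3.81) without #ii rep2, whose values with 1 library left out ran up to 2.20 without organoid AKP rep2. Of the 174 named genes called, 123 kept direction and call under all alternatives run for them and 51 did not under at least 1. With all 6 organoid AKP libraries 28 named calls were lost, without organoid AKP rep2 19 and without #ii rep3 15. Samples with the same replicate number correlated by 0.145, 0.078 and 0.074 in their deviations from the line means. Pairs with different numbers lay lower, between −0.096 and 0.029. Whether the same number marks something shared between the lines was not tested. The fit with a replicate block gave 1472 higher and 1545 lower genes and lost 1 named call, Rps27l. DESeq2 gave 1291 and 1436, limma-voom 1535 and 1607. Depth limits genes with few counts most, where the counting intervals given in the text span more than 10 times.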
